A study of Mus musculus with 3 samples.

Results

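The protein components of the cytosolic ribosome were followed in mouse embryonic stem (ES) cells and in endoderm made from them with Activin or Nodal. Members were all probes of the array table whose gene symbol is Rpl or Rps followed by a number and at most 1 letter, or is Rplp0, Rplp1, Rplp2 or Rpsa. This rule found 77 of 25697 probes, which carry 62 of the 18120 gene symbols in the table. Of these probes, 46 belong to 35 symbols of the large subunit and 31 to 27 symbols of the small subunit. The detection filter of the test (detection p-value under 0.05 on at least 2 arrays) was passed by 71 member probes of 58 symbols, 41 of the large and 30 of the small subunit.

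RNA was measured on 1-colour Illumina bead arrays in 3 groups of 2 arrays each. The ES cells were of a 129 strain background and carried Sox17-GFP, a reporter of the endoderm transcription factor Sox17. The Activin group was titled Sox17-GFP(+) cells from treatment with recombinant human Activin A at 50 ng/ml, and the Nodal group Sox17-GFP(+) cells from treatment with recombinant mouse Nodal at 1000 ng/ml. Differentiation ran for 6 to 8 days in medium with serum by the protocol, with day 7 in both source names. The undifferentiated group was kept on gelatin with mouse embryonic fibroblast feeders, with LIF, a cytokine that holds ES cells in the undifferentiated state. For this group the title was followed, since the design text calls 1 sample GFP-positive ES cells, and the sample descriptions give 2, 3 and 4 replicates where the table holds 2 arrays each. Dose, protein and species of origin thus differ together between the treated groups, and medium, time in culture and selection for GFP differ together between treated and undifferentiated cells. Nothing in the labels tells separate cultures from repeat arrays of 1 culture, so p-values measure the spread between these arrays, which may be technical.

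The ribosome of the cytosol is built from ribosomal RNA and a fixed set of proteins, most of them present once in each particle. The small subunit reads the mRNA, and the large subunit joins amino acids and passes the new chain out through its exit tunnel. Ribosomal protein mRNAs are among the most abundant of a growing cell, and most start with a run of pyrimidines, the terminal oligopyrimidine or TOP element, through which mTOR signalling sets their translation. An mRNA level, as measured here, therefore need not follow the rate at which these proteins are made. New ribosomal proteins are joined to ribosomal RNA in the nucleolus by a separate set of assembly factors, and unused ribosomal proteins such as Rpl5 and Rpl11 can bind Mdm2 and so stabilise p53.

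The groups carried the markers that their titles name. All 10 definitive endoderm markers examined were higher in both treated groups, and all 9 tested pluripotency markers were lower. Sox17, whose reporter selected the treated cells, is among these 10. Over all genes read by their brightest probe, 36.3% were higher and 36.8% lower after Activin, and 36.5% and 37.0% after Nodal. Undifferentiated arrays also held more signal of other cell types. The summed raw signal of 13 fibroblast markers was 7065 and 8154 there, against 5417 and 5719 after Activin and 4114 and 4581 after Nodal. In the order Activin, Nodal, undifferentiated, 7, 8 and 3 of these 13 were detected on no array of the group. The fibroblast markers did not all go one way. Of the 10 tested, 8 were lower and 2 higher after Activin, and 9 were lower and 1 higher after Nodal, with Pdgfra higher in both by 1.60 and 2.07 log2 units. The summed raw signal of 14 macrophage markers was 12832 and 13024 in undifferentiated cells, against 871 to 913 after Activin and 847 to 899 after Nodal, and 12, 11 and 3 of them were detected on no array of the group. The part that these cells play in the differences from undifferentiated cells was not tested. In bulk RNA, fewer cells of a type and less RNA per cell cannot be told apart. Each array detected 49.3% to 50.6% of all probes, and only 2 arrays a group limit the precision.

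Ribosomal protein probes were among the brightest on every array. Of the 131 probes with a mean raw signal of 10000 or more, 42 were members, and of the 71 probes that ranked among the 100 brightest on all 6 arrays, 39 were members. Members held 8.14% and 8.49% of the summed raw signal in undifferentiated cells, 7.87% and 8.15% with Activin, and 7.68% and 8.10% with Nodal. These shares overlapped between the Activin and undifferentiated arrays, and the Nodal arrays lay just below the undifferentiated ones. The median normalized log2 level was 13.90 for the tested members and 7.30 for all tested probes. The signal of a probe depends on its sequence as well as on its transcript, so the order of brightness is not an order of transcript abundance.

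**Figure D1:**
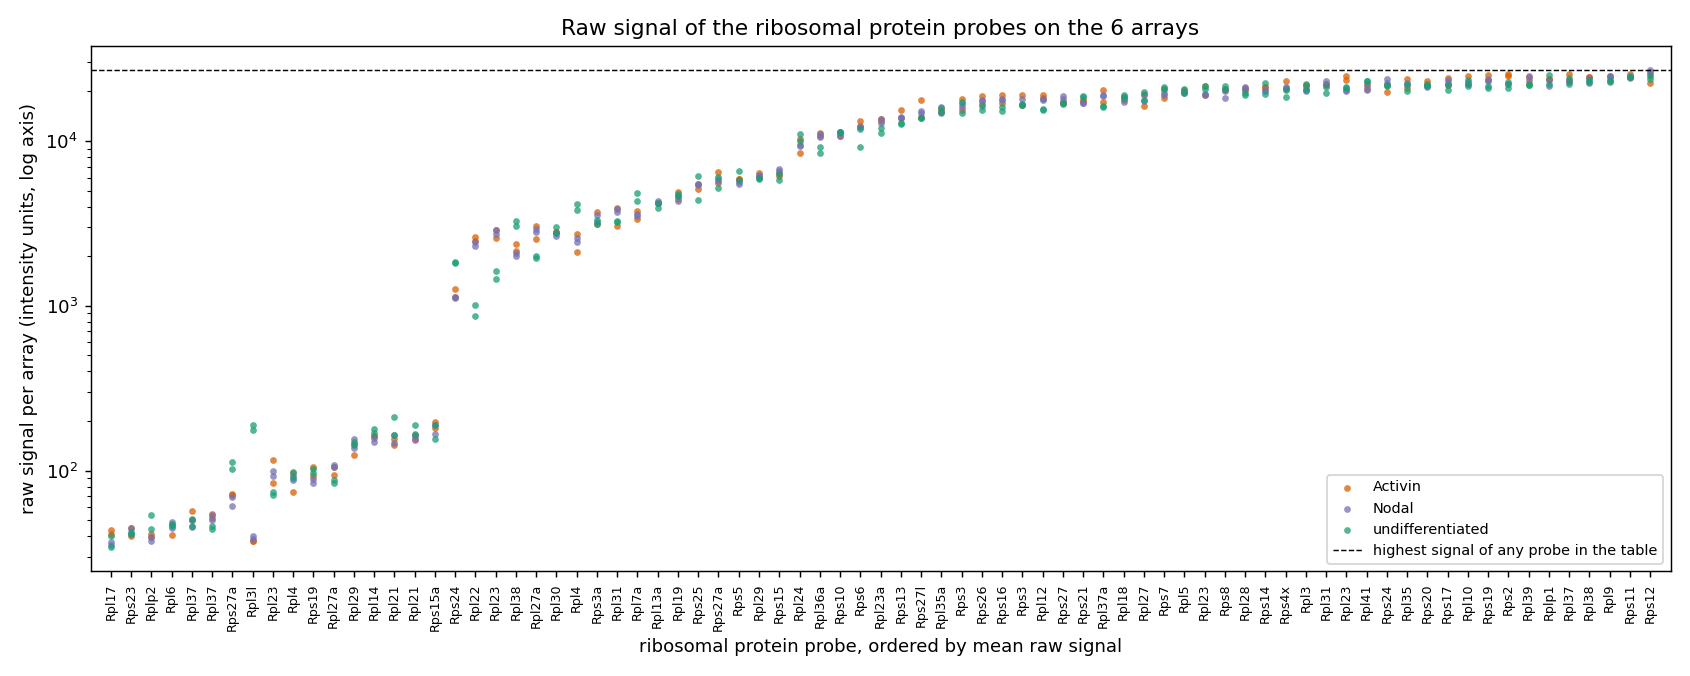
Raw signal on each of the 6 arrays (log axis, intensity units) for the 77 ribosomal protein probes, ordered by their mean; each point is 1 array, coloured by group, and the dashed line is the highest signal of any probe, 27054. Most points of a probe lie on top of each other across the 3 groups, and 42 probes lie at a mean of 10000 or more.

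The start regions of a few members show where long pyrimidine runs are present and where they are not. The set holds the 3 genes with a probe that was higher after both treatments, 3 of those with lower probes, and Rpl3l, a paralogue that was lower. Each line gives 60 bases, 30 before and 30 from the annotated transcript start, from RefSeq on GRCm38.p6. The longest run of C or T in the window is in capitals. The windows are chr4:152325696-152325755 (plus strand) for Rpl22, chr11:97782410-97782469 (minus) for Rpl23, chr7:109519165-109519224 (plus) for Rpl27a, chr9:64173357-64173416 (plus) for Rpl4, chr2:26910777-26910836 (plus) for Rpl7a, chr9:120571487-120571546 (plus) for Rpl14 and chr17:24727796-24727855 (plus) for Rpl3l.
Rpl22: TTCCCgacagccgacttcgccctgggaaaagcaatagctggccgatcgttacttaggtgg
Rpl23: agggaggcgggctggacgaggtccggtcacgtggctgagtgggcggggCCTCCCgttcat
Rpl27a: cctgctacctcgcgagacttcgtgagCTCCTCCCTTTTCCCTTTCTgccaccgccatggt
Rpl4: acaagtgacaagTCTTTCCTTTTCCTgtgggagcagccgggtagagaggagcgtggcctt
Rpl7a: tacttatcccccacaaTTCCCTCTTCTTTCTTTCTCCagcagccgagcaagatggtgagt
Rpl14: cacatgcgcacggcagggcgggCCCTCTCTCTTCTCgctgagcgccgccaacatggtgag
Rpl3l: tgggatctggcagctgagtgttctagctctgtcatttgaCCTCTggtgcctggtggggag

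The capital runs are 20 bases long in Rpl27a, 14 in Rpl4, 21 in Rpl7a and 14 in Rpl14, and each begins upstream of the annotated start. Those of Rpl27a, Rpl7a and Rpl14 cross the start, whereas that of Rpl4 also ends upstream of it. In the 60 bases printed the capital runs are 5 bases in Rpl22, 6 in Rpl23 and 5 in Rpl3l. In the 100 bases around the start, the longest run is 14 in Rpl22, 6 in Rpl23 and 9 in Rpl3l. A probe of Rpl27a was higher and probes of Rpl4, Rpl7a and Rpl14 were lower, so genes with a long run at or just before the start are found on both sides. RefSeq start windows were found for 48 member genes (58 windows). A run of at least 8 C or T on the gene's strand, in the 100 bases around the start, was present in 47 of these 58 windows (81.0%), against 35.7% of all 32851 windows. The letters CCGGAA, searched on both strands of 300 bases, were present in 46.6% of member windows and 14.9% of all. The letters TATAAA, searched likewise, were present in 6.90% and 13.6%. Matches of CCGGAA read from the other strand can overlap a pyrimidine run. A match describes the letters of a window and is not a bound site.

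Most members did not pass the test in either comparison with undifferentiated cells. After Activin, 3 member probes were higher, 12 were lower and 56 did not pass (limma, adjusted p under 0.05 over 14050 probes). Over all tested probes, 72.5% passed in this comparison, 35.2% higher and 37.3% lower, so the members' count of 15 in 71 lay below the background. After Nodal, 3 member probes were higher, 13 were lower and 55 did not pass, against 73.2% of all probes, 35.3% higher and 37.9% lower. At an unadjusted limma p under 0.05 there were 17 members of 71 in each comparison, against 74.3% of all probes after Activin and 75.2% after Nodal. Both comparisons use the same 2 undifferentiated arrays.

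The median member change was -0.00 on the log2 scale after Activin and 0.01 after Nodal, and -0.03 over all tested probes in both. The median size of a change, ignoring its sign, was 0.089 log2 units for members and 0.540 for all probes after Activin, and 0.128 and 0.560 after Nodal. These medians are not matched for signal. At a mean raw signal of 10000 or more, they were 0.079 and 0.128 after Activin, and 0.111 and 0.148 after Nodal. From 1000 to 10000 they were 0.090 and 0.487 after Activin, and 0.160 and 0.497 after Nodal. Under 1000, with 11 members, they were 0.496 and 0.560 after Activin, and 0.551 and 0.578 after Nodal. A change of at least 2-fold was found in 3 of 71 member probes after each treatment. Among all 14050 tested probes it was found in 3658 after Activin and 3775 after Nodal. Under scaling of each array to its median in place of quantile normalization, the median of all probes rose by 0.102 and the member median was -0.05 after Activin and -0.08 after Nodal. No direction of the whole set is therefore drawn.

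**Figure D2:**
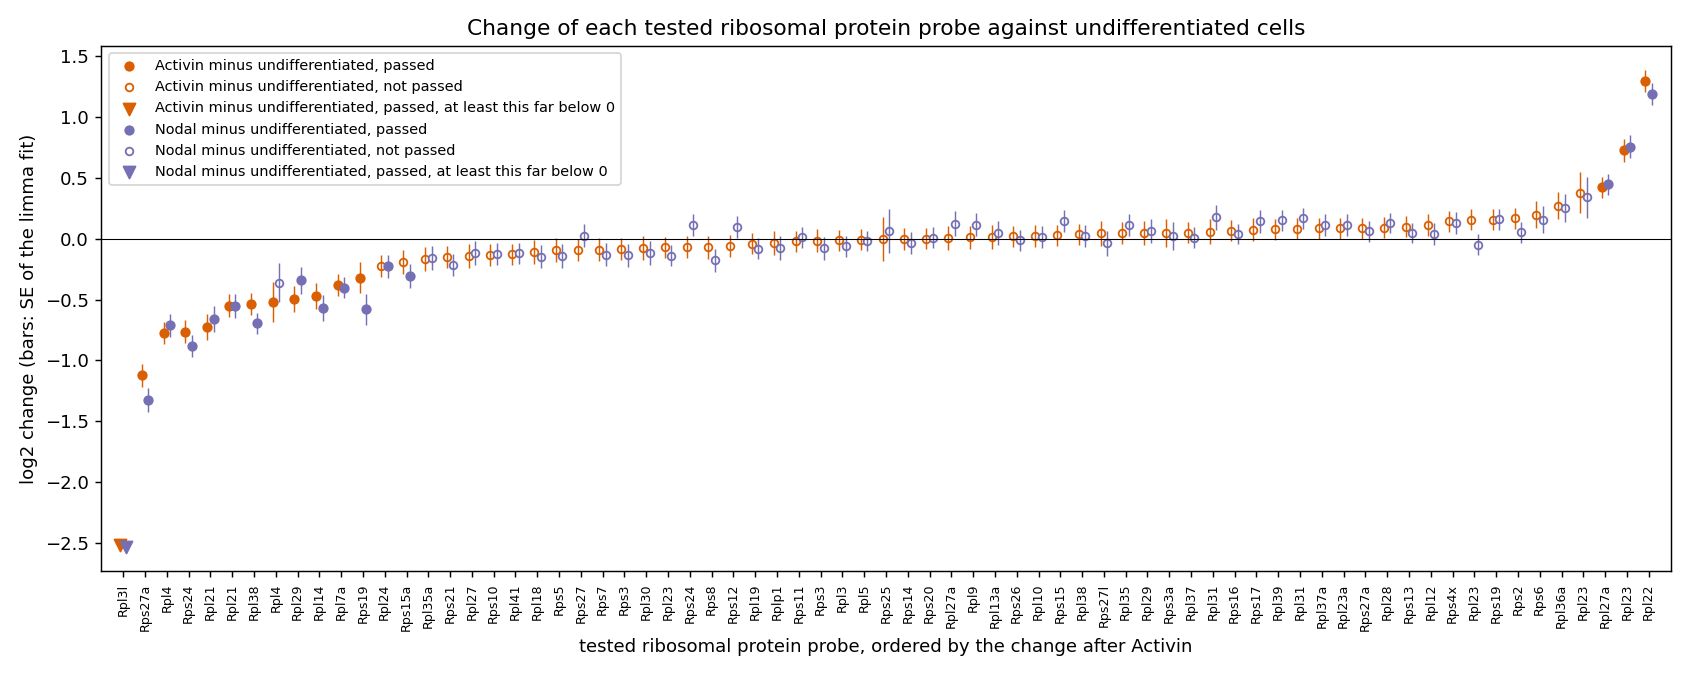
Log2 change against undifferentiated cells for each of the 71 tested ribosomal protein probes, ordered by the change after Activin; filled points passed the test, open points did not, and bars are the standard error of the limma fit on 2 arrays a group. Most points lie near 0, and Rpl22 stands at the right end at 1.30 and 1.19. The triangles at the left end are Rpl3l, detected on no treated array, drawn without bars at its bounds of at least 5.72-fold and 5.79-fold lower.

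The calls lay among the dimmer members. None of the 42 members with a mean raw signal of 10000 or more passed in any of the 3 comparisons by limma. At an unadjusted p under 0.05 there was 1 of 42 in each. Over tested probes of any brightness that share was 74.3% after Activin, 75.2% after Nodal and 14.4% in Nodal against Activin. Among all 131 probes that bright, a count that includes these 42, 29.8% passed after Activin and 32.1% after Nodal. All calls lay among the 29 tested members under 10000, with 15 called after Activin and 16 after Nodal, where the background was 72.9% and 73.6%. For the 42 bright members the 95% intervals of the log2 change ran from -0.39 to 0.52 after Activin and from -0.42 to 0.50 after Nodal, so each interval lay within a 1.5-fold change. For the 29 dimmer members only 14 and 13 intervals did.

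The highest signal of any probe on an array was between 25637 and 27054. In undifferentiated cells, the mean raw signals of the 23 members with a mean of 20000 or more lay 0.149 to 0.492 log2 units (1.11 to 1.41-fold) below 27054, above which no signal was recorded. Of all 44 probes that bright, these 23 included, 1 passed after each treatment. How far the upper end of the signal range limits the changes of bright members was not tested.

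**Figure D3:**
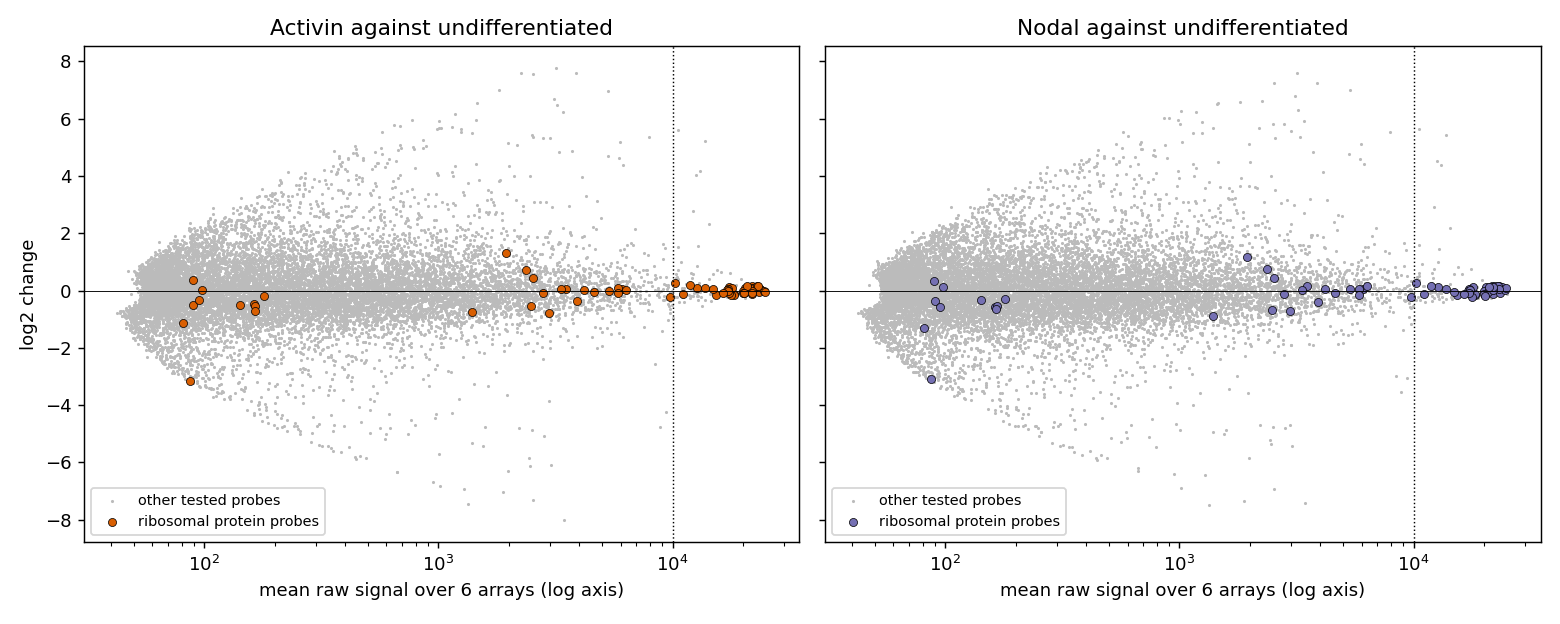
Log2 change against undifferentiated cells over the mean raw signal of the 6 arrays (log axis), for Activin on the left and Nodal on the right; grey points are the other tested probes, coloured points the ribosomal protein probes, and the dotted line marks 10000. The spread of all probes narrows to the right, the members right of the line lie close to 0, and all members far from 0 lie left of it. Values are fitted ones, which for a probe not detected in 1 of the groups, as Rpl3l, are no measured size.

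Rplp1, Rpl5, Rpl3, Rpl10, Rpl13a, Rps6, Rps4x and Rps19 passed in neither comparison at their brightest probes. All of them but Rpl13a (mean raw signal 4176) were among the 42 bright members. Rpl4 and Rpl22, also among the fixed ribosomal genes, passed in both comparisons at their brightest probes and are given below. Rplp1, a stalk protein that recruits the translation factors, had log2 levels of 14.61 and 14.48 in undifferentiated cells, 14.47 and 14.54 with Activin, and 14.40 and 14.53 with Nodal. Its changes of -0.04 and -0.08 (SE 0.096) did not pass. Rpl5, which carries the 5S RNA and binds Mdm2, had levels of 14.30 and 14.29, 14.28 and 14.29, and 14.25 and 14.29 in the same order, and changes of -0.01 and -0.02 (SE 0.084). All 6 Rpl5 levels lay between 14.25 and 14.30, and neither change passed.

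Rpl3, a large-subunit protein near the peptidyl transferase centre, had levels between 14.32 and 14.43 on the 6 arrays, with changes of -0.01 and -0.06. Rpl10, which joins the large subunit late in its maturation, had levels between 14.42 and 14.53, with changes of 0.02 and 0.01. Rpl13a, known in other settings as a component of an interferon-gated translation inhibitor, had levels between 11.92 and 12.12, with changes of 0.01 and 0.04. None of these passed. The groups overlapped in each comparison, except that for Rpl3 both Nodal arrays lay just below both the undifferentiated and the Activin arrays.

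In the small subunit, Rps6, the substrate of S6 kinase, had levels of 13.55 and 13.26 in undifferentiated cells, 13.56 and 13.64 with Activin, and 13.53 and 13.59 with Nodal. The undifferentiated arrays differed from each other by more than the treated groups differed from their mean, and the changes of 0.20 and 0.15 (SE 0.111) did not pass. Rps4x, the X-linked copy of a small-subunit protein, had levels of 14.28 and 14.23, 14.43 and 14.35, and 14.38 and 14.39 in that order. All 4 treated arrays lay above both undifferentiated ones, but the changes of 0.14 and 0.13 (SE 0.087) did not pass (adjusted p 0.169 and 0.209). The main probe of Rps19, a gene mutated in Diamond-Blackfan anaemia in humans, had levels of 14.37 and 14.40, 14.54 and 14.53, and 14.51 and 14.57, and its changes of 0.16 and 0.16 did not pass either.

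By role, with each gene read by its brightest tested probe, few lists held any call. Over all 10231 genes read that way, 73.1% passed after Activin (36.3% higher and 36.8% lower) and 73.5% after Nodal (36.5% higher and 37.0% lower). Among 7 tested proteins of the exit tunnel, Rpl22 was higher, Rpl4 was lower and 5 did not pass after either treatment. None of 4 proteins of the decoding site and mRNA channel passed, none of 8 of the platform and beak of the small subunit, and none of 8 tested genes that are mutated in Diamond-Blackfan anaemia. The largest changes among the 42 bright members, chosen after their values were seen, were those of Rpl36a (0.27 after Activin, SE 0.112, adjusted p 0.0515, and 0.25 after Nodal, adjusted p 0.0676), followed after Nodal by Rps21 (-0.22, SE 0.090, adjusted p 0.0524).

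Rpl22 was the member with the largest increase. It encodes an RNA-binding protein at the surface of the large subunit that mouse lymphocyte development needs and that yeast and mouse cells can replace with a paralogue, Rpl22l1 in the mouse. Its log2 level was 10.01 and 9.95 in undifferentiated cells, 11.21 and 11.35 after Activin, and 11.15 and 11.19 after Nodal. All 4 treated arrays lay above both undifferentiated arrays by more than 1 unit. The change was 1.30 after Activin (SE 0.091, 2.45-fold, adjusted p 1.10e-06) and 1.19 after Nodal (SE 0.091, 2.28-fold, adjusted p 2.01e-06). It passed under all 15 alternatives of each comparison, including a test against a minimum fold of 1.5.

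The paralogue Rpl22l1, which the table holds under an older name, moved the other way after Activin on the normalized scale. Its log2 level was 9.23 and 9.44 in undifferentiated cells, 9.13 and 8.83 after Activin, and 9.17 and 9.07 after Nodal. On this scale all treated arrays lay below both undifferentiated ones, the nearest by less than the gap between the Activin arrays. The raw signals overlapped, at 593 and 607 in undifferentiated cells, 656 and 474 after Activin, and 665 and 573 after Nodal. The normalized change was -0.35 after Activin (SE 0.123, adjusted p 0.0263) and passed, and -0.21 after Nodal (adjusted p 0.142), which did not.

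The other increases came from 1 of several probes of a gene. Rpl23, a protein of the large subunit's interface that can also bind Mdm2, has 4 tested probes. The probe of intermediate signal had log2 levels of 10.66 and 10.68 in undifferentiated cells, 11.38 and 11.42 after Activin, and 11.34 and 11.52 after Nodal. It was 0.73 and 0.75 higher (SE 0.095, adjusted p 8.42e-05 and 6.27e-05), with no overlap between groups. The 2 bright Rpl23 probes changed by -0.07 and 0.16 after Activin and by -0.14 and -0.05 after Nodal, and the dim one by 0.38 and 0.34 (SE 0.168), and none of these 3 passed.

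Rpl27a, another large-subunit protein, was higher at its brighter probe. That probe had levels of 10.96 and 11.05 in undifferentiated cells, 11.45 and 11.40 after Activin, and 11.43 and 11.47 after Nodal. Its changes were 0.42 and 0.45 (SE 0.088, adjusted p 0.00180 and 0.00124). The dim probe of Rpl27a changed by 0.01 and 0.12 and did not pass.

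Among members with a mean raw signal over 1000, Rpl4 had the largest decrease after Activin. Rpl4 reaches into the exit tunnel and is a core protein of the large subunit. Its brighter probe had log2 levels of 11.97 and 11.97 in undifferentiated cells, 11.29 and 11.11 after Activin, and 11.24 and 11.29 after Nodal. All treated arrays lay lower, by 0.77 after Activin (SE 0.094, adjusted p 5.13e-05) and 0.71 after Nodal (adjusted p 9.04e-05). Its dim probe was lower by 0.52 after Activin (adjusted p 0.0162), and changed by -0.36 after Nodal (adjusted p 0.0683). The call of the dim Rpl4 probe was lost without Activin replicate 2 (adjusted p 0.137) and without undifferentiated replicate 2 (0.114), and with no filter (0.0701).

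Rpl7a, a large-subunit protein whose gene carries several small nucleolar RNAs in its introns, had levels of 12.19 and 12.14 in undifferentiated cells, 11.77 and 11.81 after Activin, and 11.71 and 11.82 after Nodal. It was lower by 0.38 and 0.40 (SE 0.090, adjusted p 0.00380 and 0.00268), and no treated array reached an undifferentiated one. A further pair of lower probes had raw signals over 1000, and in both the gene's brightest probe did not pass. The dimmer Rps24 probe had levels of 10.85 and 10.96 in undifferentiated cells, 10.13 and 10.15 after Activin, and 9.96 and 10.09 after Nodal. This probe fell by 0.76 and 0.88 (SE 0.092, adjusted p 4.87e-05 and 1.78e-05), whereas the bright Rps24 probe changed by -0.07 and 0.11. Rps24 is a small-subunit protein needed to process the precursor of ribosomal RNA.

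The dimmer probe of Rpl38, which in the mouse is needed for the translation of some Hox mRNAs, had levels of 11.62 and 11.65 in undifferentiated cells, 11.06 and 11.14 after Activin, and 10.91 and 10.97 after Nodal. It was lower by 0.54 and 0.69 (SE 0.087, adjusted p 3.69e-04 and 6.27e-05). The bright Rpl38 probe, with levels between 14.46 and 14.57 on all arrays, changed by 0.04 and 0.02.

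The largest decrease of all members was that of Rpl3l, the paralogue of Rpl3 that is the form of heart and skeletal muscle in the mouse. Its raw signal was 189 and 177 in undifferentiated cells, and 37.4, 37.6, 38.5 and 40.0 on the 4 treated arrays. It was detected on both undifferentiated arrays and on no treated array, so the treated level is only a bound. Rpl3l was at least 5.72-fold lower after Activin (adjusted p 2.10e-09) and at least 5.79-fold lower after Nodal (adjusted p 2.27e-09) (against the dimmest detected probe of each array, on normalized values). Rpl3 itself did not pass, as given above.

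Rpl3l was not alone among paralogues of ribosomal protein genes. Of 7 tested paralogues, 2 of them members, 6 were lower after Activin and 5 after Nodal, and none was higher, against 36.8% and 37.0% of all genes lower. Over 13 processing alternatives, without the test against a minimum fold, 4 to 6 were lower after Activin and 4 to 5 after Nodal. The paralogues' median change was -0.73 after Activin and -0.92 after Nodal, beside -0.02 and -0.01 over all genes. Rpl39l, the testis-enriched copy of Rpl39, had raw signals of 221 and 221 in undifferentiated cells and 36.5 to 43.0 on the treated arrays, where it was not detected. Under the main processing it was at least 7.08-fold lower after Activin and at least 7.17-fold lower after Nodal (adjusted p 2.29e-09 and 2.04e-09). Rps4l, a copy of Rps4x, had log2 levels of 12.25 and 12.41 in undifferentiated cells, 10.21 and 10.23 after Activin, and 10.10 and 10.29 after Nodal, so it was lower by 2.11 and 2.13 (SE 0.102, adjusted p 8.32e-08 and 7.47e-08).

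The brighter probe of Rpl7l1 was lower by 0.73 and 0.92 (adjusted p 9.12e-05 and 1.75e-05), and Rpl36al by 0.32 and 0.29 (adjusted p 0.00830 and 0.0121). Rps27l, a p53-responsive copy of Rps27 that the rule includes, changed by 0.04 and -0.04 and did not pass. Paralogues share sequence with their parent genes, and with processed pseudogenes, so a probe may also read another copy. The sequences of the probes were not used here, and the part of such cross-reading was not tested.

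Most of the remaining lower probes were dim, with mean raw signals under 200; the exception, Rpl24 at 9751, passed after Nodal alone and is given with Rps15a. The dim probe of Rps27a, which encodes a ubiquitin fused to a small-subunit protein, had raw signals of 112 and 102 in undifferentiated cells, 71.2 and 72.6 after Activin, and 69.4 and 61.0 after Nodal. The probe fell by 1.12 and 1.33 (SE 0.095, adjusted p 4.32e-06 and 1.30e-06), and its raw signals did not overlap either. The main Rps27a probe, with levels between 12.42 and 12.56, changed by 0.09 and 0.06.

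For other dim probes that passed, the raw signals of the groups lay close together or overlapped. Rpl21, a large-subunit protein, has 2 tested probes, lower by 0.73 and 0.55 after Activin and by 0.66 and 0.55 after Nodal (adjusted p 1.97e-04 to 6.03e-04). The raw signals of its first probe were 211 and 165 in undifferentiated cells and 142 to 165 on the treated arrays, and those of its second were 189 and 168 against 153 to 165. Rpl14 was lower by 0.47 and 0.57 (adjusted p 0.00309 and 9.22e-04), on raw signals of 168 and 178 against 150 to 162. On the raw scale these Rpl14 differences were -0.09 and -0.17 log2 units. With median scaling the Rpl14 change after Activin was -0.22 and its call was lost (adjusted p 0.0877), and that after Nodal was -0.31 and still passed.

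The dim Rpl29 probe was lower by 0.50 and 0.34 (adjusted p 0.00229 and 0.0163), yet its raw signals of 143 and 149 in undifferentiated cells overlapped the 144 and 125 after Activin and the 156 and 137 after Nodal. The dim Rps19 probe was lower by 0.32 and 0.58 (adjusted p 0.0457 and 0.00245), on raw signals of 102 and 96.7 against 92.4 and 105 after Activin and 84.4 and 88.7 after Nodal. The raw signals of the called members overlapped between groups for 3 of 12 lower probes after Activin and 3 of 13 after Nodal, and for none of the 3 higher ones. Without Activin replicate 1, undifferentiated replicate 1 or undifferentiated replicate 2, the Rps19 call after Activin was lost (adjusted p 0.323, 0.117 and 0.120). That call was also lost with median scaling (change -0.15, adjusted p 0.305), with cyclic loess (-0.27, 0.0823) and with no filter (adjusted p 0.110).

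The Rpl29 call after Nodal was lost without Nodal replicate 2 (adjusted p 0.0915) and without undifferentiated replicate 2 (0.123). With median scaling both Rpl29 calls were lost, with changes of -0.27 after Activin (adjusted p 0.0513) and -0.11 after Nodal (0.413). The mean raw signal of the dim Rpl29 probe was 146.5 after Nodal and 146.0 in undifferentiated cells.

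Rpl24 and Rps15a passed after Nodal only, and are named for that after their values were seen. Rpl24, an interface protein of the large subunit, had log2 levels of 13.43 and 13.36 in undifferentiated cells, 13.13 and 13.21 after Nodal, and 13.23 and 13.11 after Activin. Its changes were -0.23 after Nodal (adjusted p 0.0486) and -0.23 after Activin (adjusted p 0.0508). Rps15a was lower by 0.31 after Nodal on the normalized scale (adjusted p 0.0172), and changed by -0.19 after Activin (adjusted p 0.103). Its raw signals overlapped, and their mean went the other way, 179 after Nodal against 173 in undifferentiated cells (0.05 on the log2 scale). The Rpl24 call was lost without any 1 of the 4 Nodal and undifferentiated arrays (adjusted p 0.0742 to 0.198), and that of Rps15a without Nodal replicate 2 (0.106) or undifferentiated replicate 1 (0.118). Both calls were also lost with median scaling and with cyclic loess, where the Rps15a change was -0.05 and -0.21 (adjusted p 0.732 and 0.0764) and the Rpl24 change -0.27 and -0.17 (adjusted p 0.0536 and 0.112). Neither gene differed past the threshold between Nodal and Activin.

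Probes of the same gene often gave different answers. Among 11 genes with more than 1 tested probe, the calls differed between probes in 7 after Activin and in 8 after Nodal. In 8 of the 11 the brightest probe passed in neither comparison. Rpl21 had 2 lower probes in both comparisons, and the probes of Rpl31 and Rps3 did not pass in either. The widest gap was in Rps27a, whose probes differed in change by 1.21 log2 units after Activin and 1.39 after Nodal. The transcript form that each probe reads was not analysed here.

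**Figure D4:**
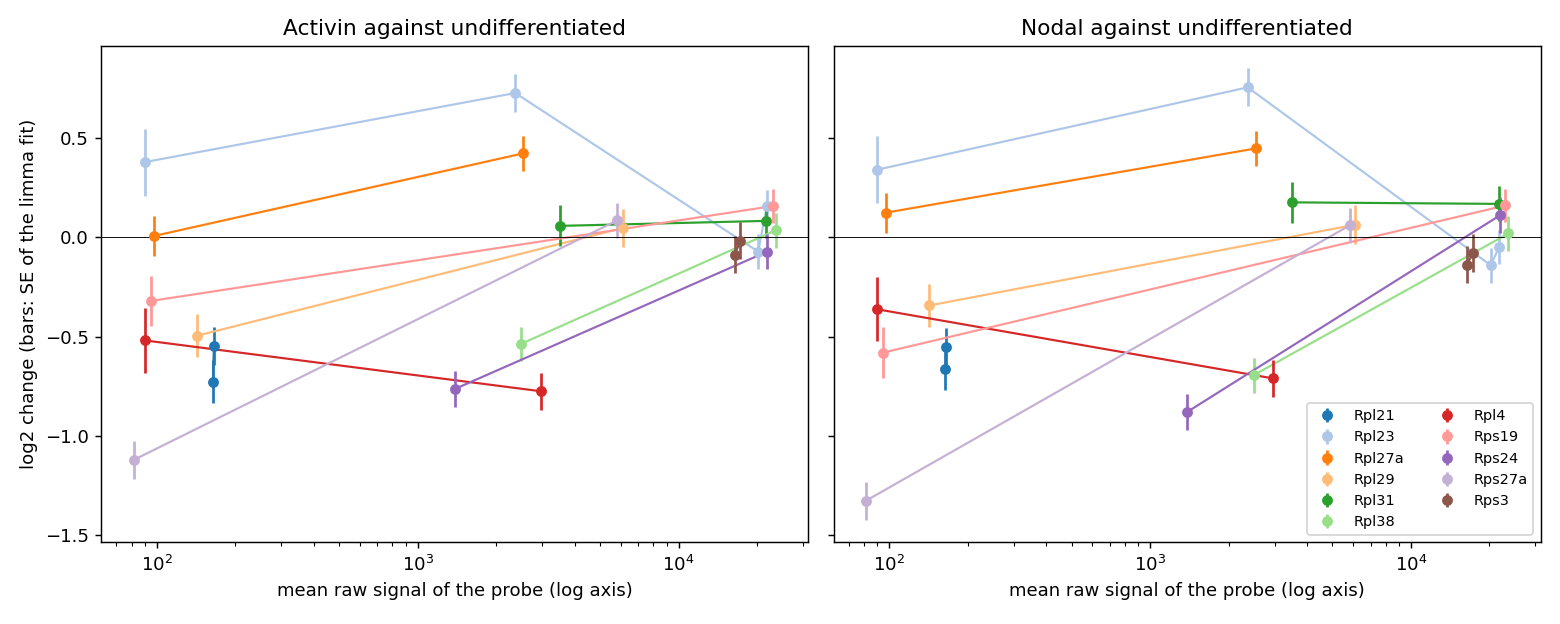
Log2 change against undifferentiated cells over mean raw signal (log axis) for the 11 ribosomal protein genes with several tested probes; lines join probes of a gene, and bars are the standard error of the limma fit on 2 arrays a group. The probes near or above 20000 lie close to 0, and the dimmer probes of Rps27a, Rps24, Rpl38, Rps19 and Rpl29 lie below their bright partners.

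The treatments were set against each other directly. Of 71 members, 0 passed in Nodal against Activin by limma, against 2.04% of all probes (286 of 14050). At an unadjusted p under 0.05 there was 1 member, against 14.4% of all probes. This member was a bright Rpl23 probe with a change of -0.20 (SE 0.085, adjusted p 0.310). The median change was -0.01, and the changes ran from -0.26 to 0.18. Every member's 95% interval lay within a 1.5-fold change.

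Several genes of the ribosome were missed by the rule because the table holds them under older symbols. Rplp0, the stalk's anchor, is listed as Arbp. Its detected probe had log2 levels of 10.63 and 10.64 in undifferentiated cells, 10.66 and 10.74 with Activin, and 10.60 and 10.59 with Nodal, and changes of 0.06 and -0.04 that did not pass. Rpsa, listed as Lamr1, changed by -0.24 and -0.20 at a dim probe and did not pass. Rps9, listed under a RIKEN name with 4 probes, changed by 0.10 to 0.22 after Activin and by 0.14 to 0.19 after Nodal, and none of the 4 passed.

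Rpl34 changed by -0.05 and -0.14, and Fau, the fusion gene that encodes Rps30, by 0.14 and 0.05, and neither passed. Rack1, a scaffold protein on the small subunit, changed by -0.29 after Activin (adjusted p 0.0596), and was lower by 0.33 after Nodal (adjusted p 0.0372). The 6 untested probes of the rule, those of Rpl17, Rpl6, Rplp2, Rps23 and 2 of 3 for Rpl37, were detected on no array, with raw signals of 34.3 to 56.7. The third Rpl37 probe had a mean raw signal of 23553. Signals at background were not read as absence of the transcript.

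Genes of the machinery that builds ribosomes were mostly lower in the treated cells. Of 36 tested nucleolar and assembly factors, 33 were lower after each treatment, none was higher, and the median change was -0.66 after Activin and -0.78 after Nodal. Over all 10231 genes read by their brightest probe, 3769 were lower after Activin and 3788 after Nodal, with a median of -0.02 and -0.01. Over 13 processing alternatives 32 to 34 of the factors were lower in each comparison and at most 1 was higher. The test against a minimum fold, which left few of the lower member probes, was not among these 13. The summed signal of the fibroblast and of the macrophage markers was higher on the same undifferentiated arrays, while Pdgfra was lower there, as given above.

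Heatr1, a factor of ribosomal RNA transcription and processing, had log2 levels of 12.56 and 12.42 in undifferentiated cells, 11.11 and 11.18 after Activin, and 11.10 and 11.19 after Nodal. Heatr1 fell by 1.35 in both (SE 0.094, adjusted p 1.02e-06 in both). Rrp9, a protein of the U3 particle, was 2.83-fold and 3.32-fold lower, Ltv1, an export factor of the small subunit, 2.70-fold and 2.64-fold, and Rrp1b 2.37-fold and 2.92-fold. Npm1, the abundant nucleolar chaperone, was lower by 0.25 after Activin (adjusted p 0.0249), and changed by -0.19 after Nodal (adjusted p 0.0758). The Npm1 change passed under 9 of 13 alternatives after Activin and under 4 of 13 after Nodal.

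Genes that transcribe ribosomal and 5S RNA were mostly lower as well (medians -0.47 and -0.53). Of 20 tested, 12 were lower and 2 higher after Activin, and 14 were lower and 2 higher after Nodal. Among all genes 36.8% were lower and 36.3% higher after Activin, and 37.0% lower and 36.5% higher after Nodal. Polr3g, the polymerase III subunit known for its high level in pluripotent cells, had levels of 8.26 and 8.16 in undifferentiated cells, 5.98 and 5.95 after Activin, and 5.84 and 5.86 after Nodal. Polr3g fell by 2.24 and 2.36 (SE 0.088, adjusted p 2.07e-08 and 1.42e-08). Ubtf, the polymerase I factor, was lower by 1.29 and 1.15. Gtf3c1, a subunit of the factor that places polymerase III, was the largest exception, at 8.09 and 8.21 in undifferentiated cells and 9.13 to 9.31 on the treated arrays (changes 1.06 and 1.07, adjusted p 1.11e-05 and 1.04e-05).

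**Figure D5:**
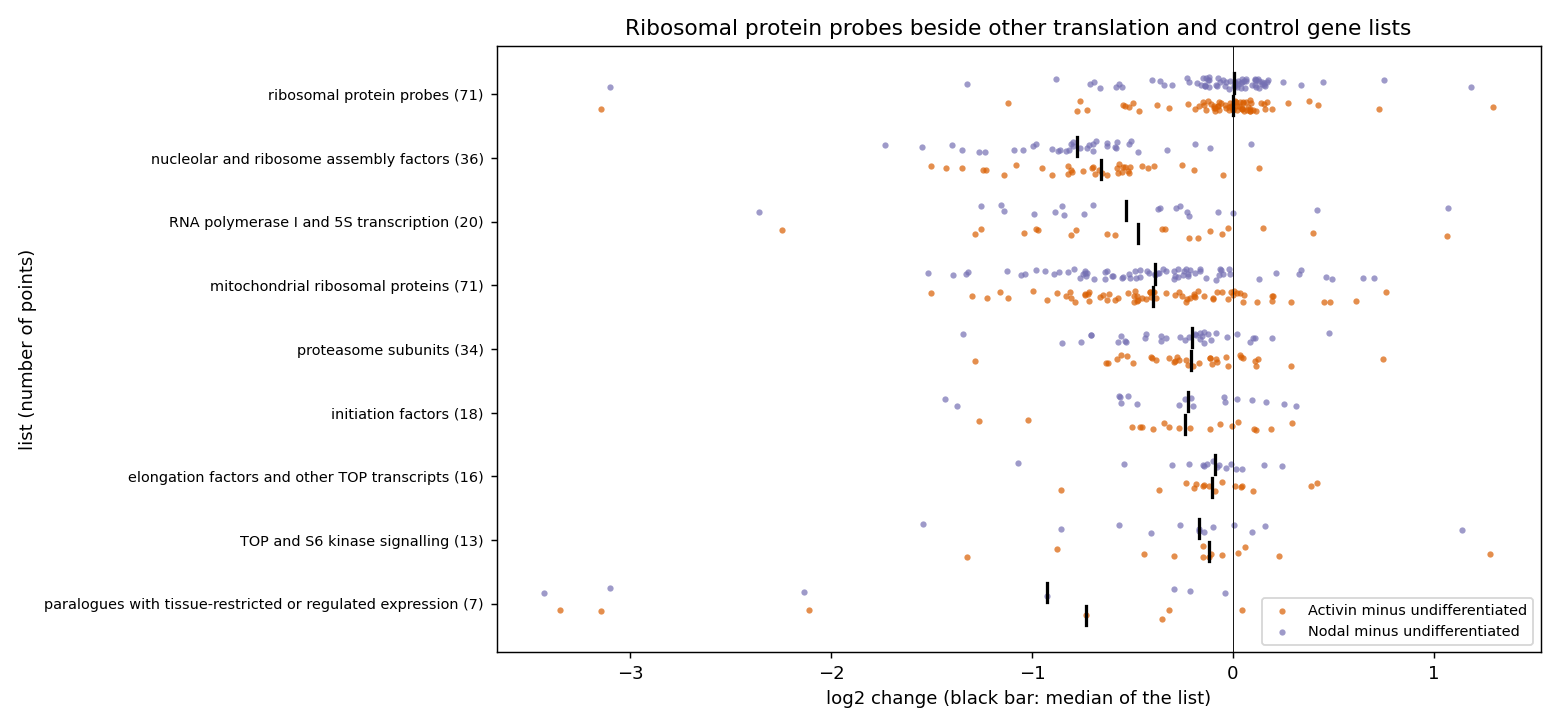
Log2 changes against undifferentiated cells for the 71 tested ribosomal protein probes and for genes of 8 other lists (brightest probe of each gene); each point is a probe or gene, colours give the treatment, and black bars are medians. The ribosomal protein medians lie at -0.00 and 0.01, and those of the assembly factors at -0.66 and -0.78. Points are fitted values, which for the undetected Rpl3l and Rpl39l of the treated cells are no measured size.

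Elongation factors and some other transcripts are known to share the TOP element with ribosomal proteins. Of 16 tested genes of this kind, 2 were higher and 3 lower after Activin and 1 higher and 4 lower after Nodal, with medians of -0.10 and -0.09. Eef1a1, the main carrier of aminoacyl-tRNA to the ribosome, had levels between 14.54 and 14.64 on all arrays and changes of 0.04 and 0.01. Eif4b was lower by 0.86 and 1.07 (adjusted p 2.35e-04 and 4.93e-05). Of 18 tested initiation factors, 9 were lower in each comparison, 1 was higher after Activin and 2 after Nodal, with Eif2s2 lower by 1.27 and 1.43. Of all genes, 36.8% were lower after Activin and 37.0% after Nodal.

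The ribosomes of mitochondria are built from a separate set of proteins. Of 71 tested mitochondrial ribosomal protein genes, 43 were lower and 4 higher after Activin, and 46 lower and 5 higher after Nodal, with medians of -0.40 and -0.39. Mrps5 was 2.83-fold and 2.86-fold lower (adjusted p 5.98e-07 and 5.46e-07). Proteasome subunits, another abundant complex, had 16 of 34 genes lower and 2 higher after Activin, and 16 lower and 1 higher after Nodal, with medians of -0.21 and -0.20. Over all genes 36.8% were lower and 36.3% higher after Activin, and 37.0% lower and 36.5% higher after Nodal. The difference between these lists and the members was not tested.

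In the signalling that controls TOP mRNAs, Eif4ebp1, the mTOR-regulated repressor of cap-dependent translation, had levels of 13.13 and 13.18 in undifferentiated cells, 11.77 and 11.89 after Activin, and 11.52 and 11.70 after Nodal. It was lower by 1.32 and 1.54 (adjusted p 1.64e-06 and 5.39e-07). Pdcd4, an inhibitor of Eif4a, was higher by 1.28 and 1.14. Of the 13 tested genes of this list, 8 did not pass after Activin and 7 after Nodal, Mtor and Rps6kb1 among them in both. Among all 10231 genes read by their brightest probe, 2752 did not pass after Activin and 2708 after Nodal.

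In the p53 arm of the response to ribosomal stress, Cdkn1a, a p53 target that stops the cell cycle, was higher by 1.67 and 1.65 (adjusted p 1.77e-07 and 1.82e-07), and Ccng1 by 1.16 and 1.32. Trp53 itself was lower by 0.53 and 0.68, and Mdm2 changed by -0.19 and -0.12 and did not pass. In all, 3 of 8 genes of this list were higher and 3 were lower after each treatment, shares close to the 36.3% and 36.8% of all genes after Activin and the 36.5% and 37.0% after Nodal.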

How the data were processed

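Per the file headers, each probe and array has a raw intensity, with no normalization and no background subtraction, and a detection p-value. The deposited series averages (intensity) were used only as an alternative. Column names tied each array to its group, and 0 columns of per-sample values were left out. Signals were background-corrected and quantile-normalized with neqc of limma 3.58.1 (R 4.3.3; offset 16) and log2-transformed. Each of 14050 probes passing the detection filter was tested by limma in 1 model of all 6 arrays, two-sided, with Benjamini-Hochberg adjustment over all tested probes and calls at 0.05. SE is the moderated standard error. In 14050 simulated probes, 200 of them changed, the fit recovered 83% of changes of 1 log2 unit and 33% of 0.5 log2 units for Activin against undifferentiated. In the data 72.5% of probes passed in that comparison, which makes the adjustment less strict than in the simulation. These shares therefore do not give the power of the real comparison.

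The members, the companion lists and the rule that picks named genes were chosen with earlier results of these data known. The rule named the 10 largest passing changes per direction, genes whose probes differ in call, undetected probes, fixed ribosomal genes, and up to 4 passing genes a list. File symbols were updated through a RefSeq table (GRCm38.p6, names only). Tried as alternatives were raw signals without background correction, a larger offset (50), cyclic loess and median scaling, a stricter or no detection filter, 1 probe or the mean of probes a gene, a minimum fold of 1.5, each array left out, array number as a block, the deposited averages, and, added after seeing the data, members split at a raw signal of 10000.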

Additional observations from a re-analysis of the deposited data

How the results depend on the processing

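The main counts were 3 higher and 12 lower member probes after Activin and 3 and 13 after Nodal. After Activin, 5 were higher without background correction, 6 with cyclic loess, 5 with no filter and 1 against a minimum fold of 1.5, and 6 were lower with 1 probe a gene and 2 against that minimum. After Nodal, 5 were higher with median scaling, 7 with cyclic loess and 1 against the minimum fold, and 8 were lower with 1 probe a gene and 3 against the minimum. Cyclic loess thus gave 6 higher and 11 lower after Activin and 7 and 11 after Nodal, and median scaling 4 and 10, and 5 and 10. The median after Nodal was -0.077 with median scaling. Among members of 10000 or more in raw signal, a split added after seeing the data, 0 were higher and 0 lower in both comparisons, and under 10000 the medians were -0.094 and -0.141. One probe a gene tests fewer probes; for the other settings the cause was not tested.

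Leaving out 1 array (a lone array is then assumed to vary like the other groups) gave 3 to 4 higher and 10 to 12 lower after Activin, 3 to 5 higher and 10 to 15 lower after Nodal, and 0 in Nodal against Activin. The 5 higher after Nodal came without undifferentiated replicate 2. Nodal against Activin had 0 calls under every alternative run. Same-numbered arrays deviated together with correlations of 0.097, 0.0013 and 0.032, so the numbers were not taken as pairs; with the replicate block the counts were 4 and 12 after Activin, 4 and 12 after Nodal, and 0 between treatments, and the call of Rpl24 was lost (adjusted p 0.0562). No result changed sign past the threshold. The deposited averages gave member medians of 0.01, 0.01 and -0.03. Signals near background limit the dim probes.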
